A study of Mus musculus with 6 samples.

Results

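The major histocompatibility region of mouse chromosome 17 was described by its replication timing, read from the DNA copy level of proliferating myeloid cells. Its members were the windows of chromosome 17 whose midpoints lay between 33600000 and 38550000 bp (mm10). They were taken by position and not by any measured value, though with earlier results of these data known. There were 456 such windows among 237602 in the series, and 452 of them carried a value in each of the 6 profiles. The label was borne out by the annotation, which placed H2 genes from H2-K2 to H2-M2 inside these bounds. The 221 protein-coding genes with their midpoint there made 44.6 genes per Mb. The region was cut into 4 parts at gene ends: a class II part up to Notch4, a class III part from Notch4 to H2-D1, a class I part from H2-D1 to H2-M2, the last H2-M gene, and a distal part beyond it. They held 92, 67, 199 and 98 windows.

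The samples came from mouse myeloid cell lines made immortal by HoxB8 under GM-CSF selection. There were 3 samples of wild-type (WT) genotype and 3 of the genotype Recql4 -/- Klhdc3 -/-. Both genotypes shared the HoxB8 immortalisation and the selection. Recql4 encodes a RecQ helicase with a role in starting DNA replication, and Klhdc3 a protein that picks substrates for a CUL2 ubiquitin ligase. Per the labels, the cultures divided every 15 to 18 hours, with over 25% of their cells in S phase. Whether the lines of a genotype were separate clones is not given in the sources used here, and DNA depth holds no expression by which the myeloid label could be checked. The 6 value columns of each deposited table carried no names, so they are called profiles A to F in column order. The target depth was 30-fold coverage with reads of 150 bases, per the labels. The deposited values are no counts, so the depth reached is unknown here. No genotype could be assigned to a profile, no comparison of genotypes was made, and the profiles are not known to be replicates of one another.

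The major histocompatibility complex holds the genes that show peptides to T cells. Class I molecules, such as H2-K1 and H2-D1, present peptides from inside the cell to CD8+ T cells, and class II molecules, such as H2-A and H2-E, present peptides from taken-up material to CD4+ T cells. Class III lies between them and holds complement, tumour necrosis factor and heat shock genes among many genes used by most cells. In the mouse, H2-K1 sits at the class II end, the class I part continues into the H2-Q, H2-T and H2-M families, and a cluster of olfactory receptor genes follows. Myeloid cells can present antigen, and their class II genes depend on the transactivator CIITA. In human cells the border of class II and class III has been described as a place where replication timing switches together with base composition.

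Stretches before gene starts on both sides of the change in timing differed in base composition, and 5 are shown for that reason. They are the 250 bases before the annotated start, written 5′ to 3′ on the strand of the gene, from RefSeq (GRCm38.p6, the assembly of mm10). Capitals mark CG dinucleotides, except in H2-Eb1, which holds none and where they mark the Y box CTGATTGG, a motif of class II promoters. H2-K1 (chr17:34000348-34000597, minus strand) encodes a classical class I heavy chain in the class II part, and H2-Eb1 (chr17:34305617-34305866, plus strand) a class II beta chain. Ehmt2 (chr17:34898224-34898473, plus strand), in the class III part, encodes a histone H3 lysine methyltransferase. Gabbr1 (chr17:37045716-37045965, plus strand), a GABA-B receptor subunit gene, lies at the start of the stretch in which the profiles fell through 0, and Olfr136 (chr17:38334909-38335158, plus strand) was the latest olfactory receptor gene.
H2-K1: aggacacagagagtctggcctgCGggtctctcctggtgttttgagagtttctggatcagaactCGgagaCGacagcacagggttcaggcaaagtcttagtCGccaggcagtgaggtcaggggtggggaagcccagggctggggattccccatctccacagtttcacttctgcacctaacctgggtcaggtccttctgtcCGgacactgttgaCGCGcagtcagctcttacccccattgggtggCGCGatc
H2-Eb1: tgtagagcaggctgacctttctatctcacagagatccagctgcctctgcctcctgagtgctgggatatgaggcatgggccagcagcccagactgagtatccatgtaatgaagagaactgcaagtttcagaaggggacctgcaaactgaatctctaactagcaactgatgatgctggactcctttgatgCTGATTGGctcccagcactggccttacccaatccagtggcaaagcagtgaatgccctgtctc
Ehmt2: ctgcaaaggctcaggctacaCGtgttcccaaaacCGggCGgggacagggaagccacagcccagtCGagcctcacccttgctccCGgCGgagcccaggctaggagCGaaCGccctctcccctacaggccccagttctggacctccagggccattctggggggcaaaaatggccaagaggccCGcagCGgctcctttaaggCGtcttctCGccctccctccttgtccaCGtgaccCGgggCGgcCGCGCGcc
Gabbr1: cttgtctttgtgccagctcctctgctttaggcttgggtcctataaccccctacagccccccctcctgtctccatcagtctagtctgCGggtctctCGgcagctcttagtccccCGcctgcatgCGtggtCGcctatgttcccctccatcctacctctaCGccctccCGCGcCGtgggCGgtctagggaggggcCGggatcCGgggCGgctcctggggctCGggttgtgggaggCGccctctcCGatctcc
Olfr136: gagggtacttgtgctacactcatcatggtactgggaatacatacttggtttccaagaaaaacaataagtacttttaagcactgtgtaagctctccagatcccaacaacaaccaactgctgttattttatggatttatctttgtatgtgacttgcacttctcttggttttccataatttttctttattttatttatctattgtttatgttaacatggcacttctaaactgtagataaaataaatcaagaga
They held 9, 0, 18, 16 and 0 CG dinucleotides, with a G and C content of 58.4%, 51.6%, 67.6%, 66.0% and 32.8% in the order printed. For Olfr136 the annotated start may be that of the coding sequence, so its stretch may not be a promoter.

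The class II and class III parts replicated early, the class I part ran from early to late, and the distal part was late in each profile. Timing was read from 2 values per window. The raw level is the unsmoothed DNA copy level, about 2 on autosomes, and the timing score is its smoothed form, scaled so that the autosomes average 0 with unit spread, where a higher score stands for earlier replication. Mean scores of the class II part were 1.18, 1.28, 1.26, 1.21, 1.15 and 1.14 in profiles A to F, with a median of 1.20. Those of the class III part were 1.27, 1.27, 1.30, 1.30, 1.25 and 1.16, with a median of 1.27. The 6 profiles thus lay within 0.139 and 0.141 score units of each other in these parts. The class I part scored 0.63, 0.66, 0.54, 0.53, 0.58 and 0.54, median 0.56. The distal part scored -1.24, -1.20, -1.31, -1.32, -1.22 and -1.29, median -1.27. The distal values did not overlap those of any other part.

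The unsmoothed copy level moved with the score. In profiles A to F its mean was 2.17, 2.15, 2.14, 2.14, 2.15 and 2.16 over the class III part and 1.79, 1.81, 1.82, 1.78, 1.78 and 1.77 over the distal part. The copy level of the class III part was 1.21 times that of the distal part (range 1.18 to 1.22), and the difference in score was 2.49 (2.45 to 2.63). The class II part stood at a median raw level of 2.15 and the class I part at 2.05. Over the region as a unit, the raw level was 2.05, 2.05, 2.03, 2.02, 2.02 and 2.03, and above the autosomal median of the same profile (1.96 to 1.98) in all 6. Chromosome 17 below the region shared this level, with a median over profiles of 2.03 in both.

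**Figure D1:**
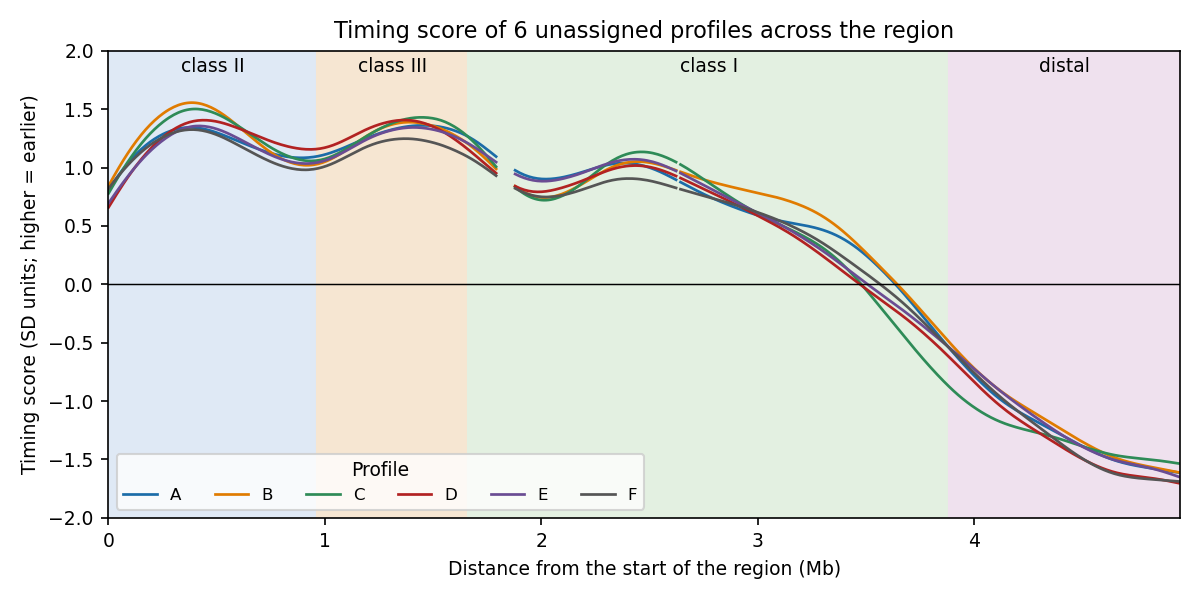
Timing score (vertical axis, SD units) against distance from the start of the region (Mb), 1 line per unassigned profile, with the 4 parts shaded. The lines hold 3 early crests and then fall through 0 near the end of the class I part to between -1.70 and -1.53 at the distal end; the breaks are windows without a value.

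Of the 452 valued windows, 317 (70.1%) scored above 0 in every profile, against 47.3% of autosomal windows valued in all 6. Another 118 (26.1%) scored below 0 in every profile, against 39.8% of autosomal windows. Chromosome 17 below the region was nearer to these shares, with 62.7% of its windows above 0 and 27.4% below 0 in every profile. Neighbouring windows share the smoothing and are not independent. All 92 class II windows and all 67 class III windows were above 0 in each profile, and all 98 distal windows below 0. The class I part held 158 windows above 0, 20 below 0 and the 17 windows of mixed sign. Gene density fell in the same order as the score among the class III, class I and distal parts, with 81.6, 39.2 and 29.1 protein-coding genes per Mb, and was 47.7 in the class II part. Among genes, 171 of the 221 protein-coding members scored above 0 in every profile (76.2% of autosomal genes did) and 41 below 0 (15.5%). Counted by gene, the region was thus close to the autosomal shares, and the excess of early windows was not seen among genes.

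The mean scores of class II and class III overlapped in their ranges over profiles, with class III the higher in 5 of 6. That order holds for the class II part as cut here, with its proximal flank and butyrophilin-like block. Cut from H2-Oa to the last H2-E gene, class II had a median of 1.28, against 1.27 for class III. The difference in mean score between the class III and class II parts was 0.092, -0.011, 0.043, 0.09, 0.094 and 0.021 in profiles A to F, and that in raw level was between -0.015 and 0.0045. The lowest point between the 2 parts was a shallow valley at the butyrophilin-like genes Btnl5-ps, Btnl6 and Btnl7-ps, just before Notch4. Its lowest scores were 1.08, 1.02, 1.06, 1.16, 1.03 and 0.98, at positions from 34491762 to 34536906. Notch4, a Notch receptor gene that opens the class III part (chromosome 17, 34564286 to 34588543), scored 1.10, 1.04, 1.06, 1.16, 1.05 and 1.00. In each profile the valley stayed at or above 0.98.

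The early stretch of the region was built of 3 crests with shallow valleys between them. The first, at H2-K1, Ring1 and Col11a2, had its summit between 33973253 and 34044481, with scores of 1.34, 1.56, 1.5, 1.41, 1.36 and 1.32. Ring1 encodes a Polycomb ubiquitin ligase and Col11a2 a fibrillar collagen chain. The second lay in the class III part between Hspa1a and Clic1 (34963180 to 35056650), with scores of 1.36, 1.39, 1.43, 1.41, 1.34 and 1.25. The third lay at Gnl1, H2-T24, H2-T23 and H2-T22 (35983231 to 36057254) and was lower, at 1.04, 1.05, 1.13, 1.02, 1.07 and 0.91. Summits of the 6 profiles fell within 71.2, 93.5 and 74.0 kb of each other. The first crest and the second had a prominence of at least 0.25 score units in every profile. The third reached that prominence in profiles B and C, and at least 0.1 in all 6.

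Profile B stood highest at the first crest and profile F lowest at each of the 3. The second valley, around Gm9573 between Pou5f1 and Gnl1 (35581983 to 35623064), was deeper, with scores of 0.90, 0.74, 0.72, 0.79, 0.88 and 0.75. Profiles A and E were the highest there and C the lowest.

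Within the class II part, the antigen presentation genes were early, as were its other genes. All 10 matched class II genes scored above 0 in every profile, as did all 46 protein-coding genes of the part and 76.2% of autosomal genes, with a list mean of 1.26 (range over profiles 1.16 to 1.31). H2-Oa, a chain of the H2-O molecule that modulates peptide loading, was the earliest at 1.36, and H2-Ea, annotated as a transcribed pseudogene in this assembly, the latest at 1.13. H2-Ab1 (chromosome 17, 34263227 to 34269418), the beta chain of H2-A, scored 1.18, 1.25, 1.27, 1.29, 1.18 and 1.13. Its raw level was 2.12, 1.99, 2.11, 2.13, 2.10 and 2.07. H2-Aa, its alpha chain partner, stood at 1.19 and H2-Eb1 at 1.17. Profiles C and D were the highest at these 3 genes and F the lowest.

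The genes of peptide processing and loading lay in the same early stretch, with a list mean of 1.30 over 5 members. They ranged only from Tap2, a subunit of the peptide transporter, at 1.29 to the loading factor gene Tapbp at 1.34. Tap1, the other transporter subunit (chromosome 17, 34187556 to 34197225), and Psmb8, an immunoproteasome subunit, share 1 window and scored 1.23, 1.36, 1.36, 1.34, 1.25 and 1.19. Their raw level was lower than the score alone would give. The window of Tap1 and Psmb8 (34191576 to 34201575) had raw levels of 1.88, 1.84, 1.95, 1.83, 1.76 and 1.86, and the next one, at Tap2, of 1.80, 1.75, 1.76, 1.80, 1.86 and 1.78. Both windows lay below the autosomal median raw level (1.96 to 1.98) in all 6 profiles, with median scores of 1.30 and 1.29.

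The blocks around the class II genes were graded. The block from Kifc1 to Col11a2, which holds H2-K1, the chromatin factor genes Daxx and Ring1 and the ribosomal protein gene Rps18, had block means of 1.33, 1.54, 1.48, 1.38, 1.33 and 1.31 in A to F. It was the highest of the 15 blocks in 5 of the 6 profiles, and in profile A the heat shock block was higher. The 6 butyrophilin-like members, which encode relatives of costimulatory proteins, scored 1.07 on average, from Btnl2 at 1.12 to Btnl7-ps at 1.05. The proximal flank, from the start of the region to Kifc1, rose from 0.79 at its first window to the first crest and had a block median of 1.09.

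The class III part was early throughout. The 3 heat shock 70 genes, which encode chaperones, sat at the second crest with a list mean of 1.37, and Hspa1a scored 1.35, 1.39, 1.42, 1.41, 1.34 and 1.25. The Ly6g genes, which encode small surface proteins, followed at 1.36, with all 6 members between 1.34 and 1.37. The complement genes C2, Cfb, C4a and C4b scored 1.28, from C2 at 1.32 to C4b at 1.20. At C4b (chromosome 17, 34728139 to 34743902) the raw level was 1.93, 1.94, 1.91, 1.90, 1.96 and 2.06. At C4a, a near copy of C4b, the median raw level was 2.19.

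The window of Ltb and Tnf, like that of Tap1, held an early score over a low raw level. Tnf (chromosome 17, 35199367 to 35202007), which encodes an inflammatory cytokine, scored 1.32, 1.28, 1.35, 1.25, 1.27 and 1.15, and its list with Lta and Ltb 1.27. The window of Ltb and Tnf had raw levels of 1.97, 1.84, 1.93, 1.83, 1.89 and 1.89. The window of Lta was not among the low ones, with a median raw level of 2.04. By contrast the window of Ddx39b, an RNA helicase gene that closes the class III part, stood at 2.41, 2.35, 2.38, 2.36, 2.40 and 2.38. These windows are near neighbours, and each of the 6 values at Ddx39b exceeded each value at Tnf.

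**Figure D2:**
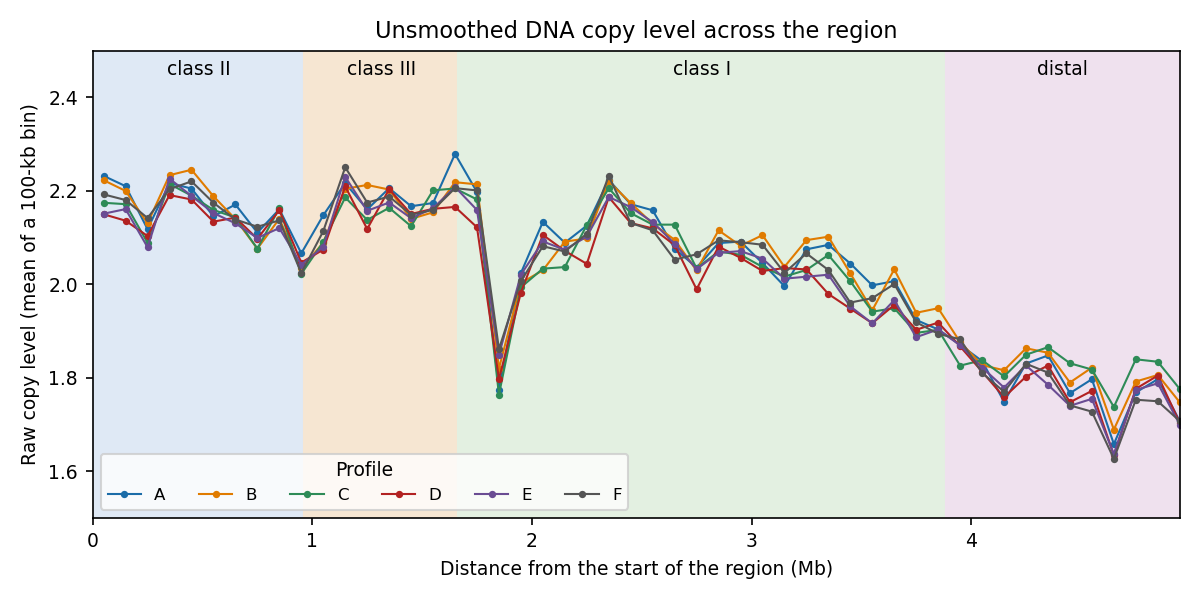
Unsmoothed copy level, averaged in 100-kb bins (vertical axis, not starting at 0), against distance from the start of the region (Mb), 1 line per profile. The bin from 35400001 to 35500000, at the H2-Q genes, stood between 1.76 and 1.86 over 5 windows, of which 2 carried a value.

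The class I part opened early and closed late. H2-D1, its first gene and a classical class I heavy chain gene (chromosome 17, 35263094 to 35267497), scored 1.26, 1.19, 1.25, 1.15, 1.20 and 1.08, and H2-K1 in the class II part 1.34, 1.56, 1.5, 1.40, 1.35 and 1.32. H2-K1 was the earlier of the pair in every profile. Block means then fell along the chromosome, with a rise at the H2-T genes in 5 of 6 profiles and none in profile A. Medians were 1.06 for H2-D and H2-Q, 0.87 from Pou5f1 to Gnl1, 0.99 for H2-T and 0.63 from H2-M10.2 to H2-M10.6. They were 0.24 from Trim26 to Gabbr1 and -0.21 from Olfr90 to H2-M2. The H2-T block overlapped the H2-D and H2-Q block in its range over profiles, and the latter 3 of these 6 blocks did not overlap one another.

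The 31 class Ib members, nonclassical class I genes and their pseudogenes, covered this whole span. Of these, 29 scored above 0 in every profile and 2, H2-M3 and H2-M2, below 0 in every profile, against 76.2% and 15.5% of autosomal genes. H2-K2, a transcribed pseudogene beside H2-K1, was the earliest at 1.37. H2-T23, the gene of Qa-1, which presents leader peptides to receptors of natural killer cells, scored 1.03, 1.05, 1.13, 1.02, 1.07 and 0.90. H2-M3 (chromosome 17, 37270234 to 37274485), which presents N-formylated peptides of bacteria, scored -0.069, -0.05, -0.43, -0.27, -0.22 and -0.16. H2-M2 was the latest at -0.55 (-0.88 to -0.50). Among the H2-M10 genes the score ran from 0.89 at H2-M10.2 to 0.43 at H2-M10.6.

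Other genes of the class I part followed their place on the chromosome. Pou5f1, a pluripotency transcription factor gene, scored 0.94, 0.80, 0.79, 0.81, 0.92 and 0.79, and was the latest of the 12 chromatin and transcription genes, whose earliest was Ring1 at 1.38. Rpp21, a ribonuclease P subunit gene, was the latest of the 12 genes of RNA and protein synthesis at 0.92, and the valyl-tRNA synthetase gene Vars the earliest at 1.37. Of the 6 tripartite motif genes, Trim39 was early at 0.91 and Trim31, the latest, stood at 0.33. Mog, the gene of a myelin surface protein, scored 0.37, 0.42, 0.13, 0.084, 0.13 and 0.21. At Mog profiles A and B lay above the other 4.

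**Figure D3:**
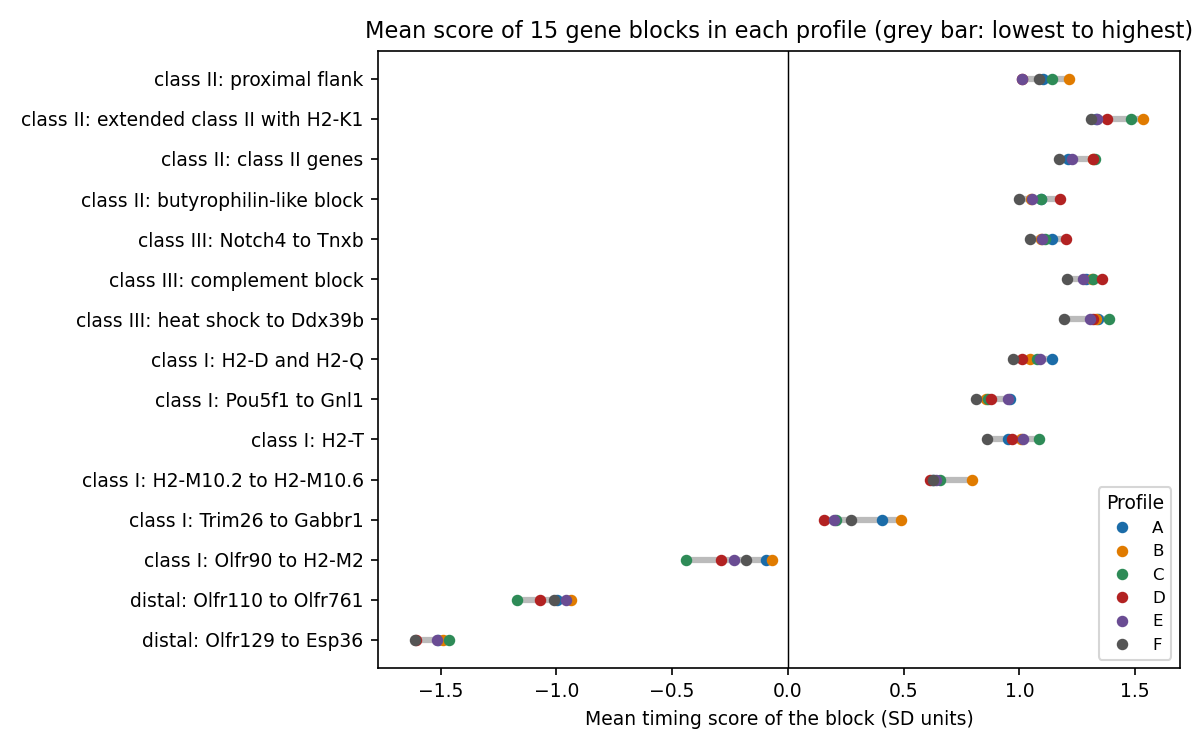
Mean timing score (horizontal axis, SD units) of 15 gene blocks in the order of the chromosome, 1 point per profile, with a grey bar from the lowest to the highest profile. The 12 blocks up to Gabbr1 lay above 0 in each profile and the 3 that follow below 0; the bars were longest from Trim26 to H2-M2.

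The score fell through 0 once in each profile, among the first olfactory receptor genes. The crossing was at 37236402, 37244705, 37078780, 37072290, 37107333 and 37166053 in profiles A to F, a stretch of 172 kb that runs from Gabbr1 to just past Olfr97 and holds the ubiquitin-like gene Ubd. Profile D crossed inside Gabbr1, C just past its end, E at Olfr91 and Olfr92, F further on, and A and B last. Gabbr1 (chromosome 17, 37045966 to 37074305) scored 0.30, 0.34, 0.033, 0.013, 0.062 and 0.14, and Olfr97 0.017, 0.032, -0.34, -0.21, -0.16 and -0.091. The steepest fall, taken as the mean score of the 200 kb after a window minus that of the 200 kb before it, was -0.47, -0.44, -0.46, -0.37, -0.33 and -0.39. It was centred between 37217932 in profile C and 37458826 in D and E.

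Raw levels fell over the same stretch. The block from Trim26 to Gabbr1 had mean raw levels of 2.07, 2.07, 2.04, 1.98, 1.99 and 2.01, and the block from Olfr90 to H2-M2 of 1.97, 1.97, 1.93, 1.93, 1.92 and 1.96. In each profile the second block was lower. In the first block A and B were the highest in raw level as in score. In the second block, profile C had the lowest score, -0.44, but its raw level was inside the range of the others.

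Olfactory receptor genes, which serve smell in sensory neurons, filled the late end. The region held 46 protein-coding members, of which 38 scored below 0 in every profile, 8 were mixed and 0 scored above 0 in every profile (15.5% and 76.2% of autosomal genes were below and above 0). Their list mean was -0.75, -0.70, -0.95, -0.87, -0.78 and -0.80 in A to F. The score fell with position from Olfr90, the earliest at 0.074, through Olfr110 at -0.57 to Olfr136, the latest (chromosome 17, 38335159 to 38336097), at -1.55, -1.53, -1.49, -1.64, -1.54 and -1.66. Esp36, an exocrine gland-secreting peptide gene and the last protein-coding gene of the region, scored -1.57. Of the 978 olfactory receptor genes with a score elsewhere on the autosomes, 71.8% scored below 0 in every profile, against 82.6% here. The medians were -0.69 elsewhere and -0.84 here. These genes lie in clusters and share windows, so the shares were not tested.

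Genes of antigen presentation on other chromosomes were also early for the most part. Of 20 such genes 19 had a score, and 17 of them scored above 0 in every profile, against 76.2% of autosomal genes. The list mean was 1.11 (1.01 to 1.16). Rfxank, a subunit of the RFX factor of class II promoters, was the earliest at 1.72, and Rfxap, another subunit, the latest at -0.12 (-0.23 to 0.099). Ciita, the class II transactivator gene, scored 0.66, 0.85, 0.67, 1.01, 0.99 and 0.79. B2m, the light chain of class I molecules, stood at 1.28, and Nlrc5, the class I transactivator gene, at 1.48.

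The profiles lay closer together here than over the autosomes. The score range among the 6 profiles reached 0.5 units in 0 of the 452 valued windows, against 14.0% of autosomal windows, and 0.3 units in 81 (17.9%, against 45.7%). Part of the autosomal share came from profile D. Chromosome 17 above the region, where D stood high, held 5228 of the 28294 autosomal windows past 0.5. With D left out, the autosomal shares were 9.64% at 0.5 and 39.3% at 0.3, against 0 and 12.4% in the region. The median range was 0.182 in the region and 0.286 on the autosomes. All 81 windows past 0.3 lay at the transition: 4 at the end of the block from H2-M10.2 to H2-M10.6, 25 from Trim26 to Gabbr1, 35 from Olfr90 to H2-M2 and 17 from Olfr110 on. The widest range, 0.396, was at Olfr757-ps1 (37370350 to 37381350), where profile C was the lowest and B the highest. In the blocks of Trim26 to Gabbr1 and Olfr90 to H2-M2, every valued window passed 0.3.

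**Figure D4:**
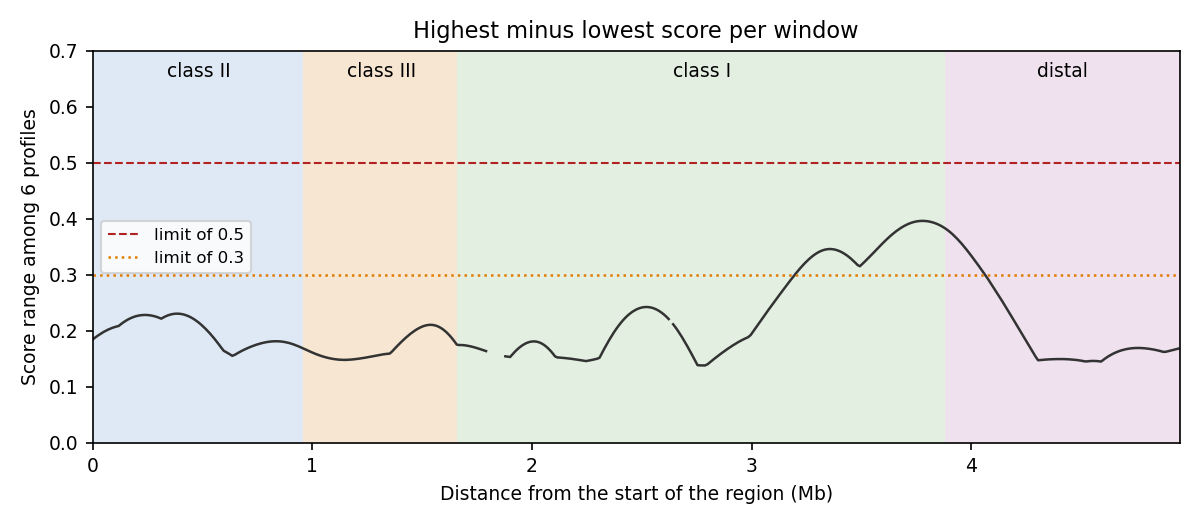
Highest minus lowest score of the 6 profiles per window (vertical axis, score units) against distance from the start of the region (Mb), with the limits of 0.5 and 0.3 as dashed and dotted lines. The curve stays under 0.5 throughout and passes 0.3 only around the transition from the class I to the distal part, with a maximum of 0.396.

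Profile D stood far above the others over chromosome 17 beyond the region as a whole, but not in or below it. Above the region, over 5323 valued windows, the mean score of D was 0.77 and its raw level 2.07, against -0.33 to -0.17 and 1.92 to 1.96 in the other profiles. The difference did not begin at the end of the region. In the 100-kb bin from 38800001 to 38900000 D was the lowest, at -1.80, and in that from 39400001 to 39500000 the highest, at -1.87. Over the 2 Mb above the region D scored -1.51 against -1.88 to -1.79. Its raw level there was 1.75, against 1.67 to 1.75 in the others. Within the region the raw level of D, 2.02, was the lowest of the 6, and its mean score of 0.38 lay inside their range. Below the region D scored 0.42, against 0.29 to 0.42 in the others. Over the 2668 valued windows there, 6.03% had a range of at least 0.5. Above the region 98.2% did, and 11.3% with profile D left out. In the 2 Mb above the region the share was 46.0%, and 0 with D left out.

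Single windows departed from the smoothed profile in the same way in all profiles. The raw level was set against a straight-line fit on the score over the autosomal windows of each profile. The scatter around this line was 0.128 to 0.136 per window in the region and 0.121 to 0.127 over the autosomes. Departures correlated between profiles, with Pearson r from 0.789 to 0.842 across 452 windows for the 15 pairs, and from 0.758 to 0.803 over the autosomes. The windows of a pair share their sequence, base composition and how much of it reads can be placed on, so these are descriptions. A total of 9 windows lay more than 0.2 below the line in every profile (1.47% of autosomal windows did, against 1.99% here) and 4 more than 0.2 above it (0.347%, against 0.885%).

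The window furthest below the line lay between H2-Q10 and Pou5f1 (35485831 to 35495933), with raw levels of 1.63, 1.64, 1.55, 1.68, 1.62 and 1.72. Next to it, the window at Gm32362 stood at 1.71, 1.83, 1.79, 1.67, 1.85 and 1.85. The other low windows were those of Tap1 with Psmb8, Tap2, Ltb with Tnf, Ppt2 with Prrt1, Olfr117 and 2 windows of the H2-M10.2 to H2-M10.6 block that overlap no annotated gene. The high windows were those of Ddx39b, H2-Bl, the pseudogene Gm18733 next to H2-D1 and the pseudogene Gm6726 in the distal part. H2-Bl, a transcribed class I pseudogene, had raw levels of 2.50, 2.42, 2.36, 2.36, 2.46 and 2.40. The part of base composition or read placement in these departures was not tested.

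The H2-Q genes were the least well covered. Of the 4 windows without a value in any profile, 3 lay side by side from 35397820 to 35472445 at H2-Q6, H2-Q7 and H2-Q10, and the other from 36227955 to 36238063 at the pseudogene Gm18604. The H2-Q windows reached 31027 bp in length, against a median of 10041 bp over the series. In the region 24 of 456 windows were longer than 1.5 times that median, or 5.26%, against 4.10% of autosomal windows. The scores given for H2-Q7 and H2-Q10 (0.84 for both) and for H2-Q6 (1.00) are those of the nearest valued windows.

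The 250 bases before annotated starts, called promoters here, differed in composition between the early and the late parts. All distal ones but that of Esp36 precede olfactory receptor genes. Many of these are annotated over a short span, as Olfr136 (38335159 to 38336097), so their start may be that of the coding sequence. For such genes the 250 bases may not be a promoter, and the contrast cannot be read as one of promoters alone. RefSeq promoters were matched for 214 genes of the region, with 264 annotated starts. The median number of CG dinucleotides in the 250 bases before the start was 10.5 in the class II part (quartiles 2.75 and 19) and 10 in the class III part. It was 5 in the class I part and 1 in the distal part. At least 10 were present in 35 of 64, 34 of 64, 32 of 114 and 0 of 22 promoters, against 38.3% of autosomal promoters of the same length. The median G and C content was 55.2%, 58.4%, 51.6% and 33.6% in that order. The butyrophilin-like block, early by its score, had a median of 1 CG dinucleotide and none of its 7 promoters reached 10.

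**Figure D5:**
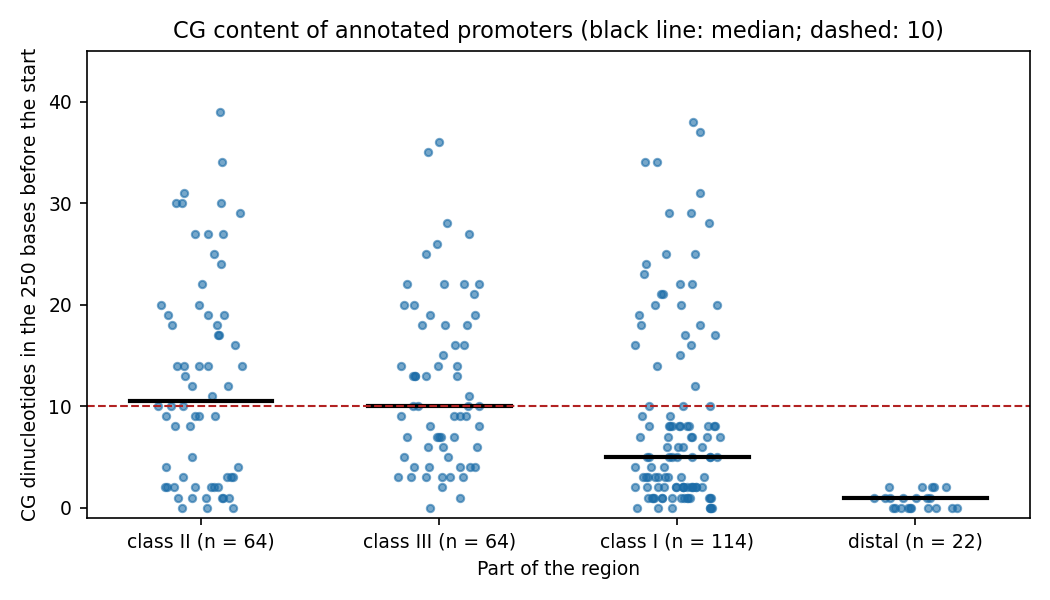
Number of CG dinucleotides in the 250 bases before each annotated start (vertical axis) by part of the region, 1 point per promoter, with the median as a black line and the limit of 10 dashed. The 22 distal points, all but Esp36 from olfactory receptor genes, lie under the limit, and the other parts hold points on both sides of it.

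The Y box CTGATTGG, searched on both strands, was in 4 of 9 class II gene promoters, those of H2-Oa, H2-Aa, H2-Eb1 and H2-Eb2, each time on the strand of the gene, and in 3.76% of autosomal promoters. It was not limited to class II genes. The class I part held it in 16 of 114 promoters (14.0%), among them those of H2-D1, H2-Q6, H2-Q7 and H2-T23. In class III it was in 3 of 64, including Hspa1a and Hspa1b. Within the class I part, it was in 9 of 12 promoters of the block from H2-M10.2 to H2-M10.6, with H2-M9 counted at both its starts. Those 9 belong to closely related H2-M genes and are not independent, and in them it was on the opposite strand. The Y box was in none of the 35 stretches before olfactory receptor starts, which may not all be promoters. A match says only that these letters are present.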

How the data were processed

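DNA of 6 samples of mouse cell lines was sequenced in whole and replication timing was read from DNA copy level, a method the series title names TIGER. The authors deposited a table of unsmoothed copy levels (about 2 on autosomes) and a table of smoothed timing scores (mean 0 and SD 1 over autosomes, by the values), both in windows of at least 10000 bp. The build was mm10 and Picard 2.23.9 was used, per the submitters' processing notes. The aligner, the correction for base composition and the smoothing are not given in the sources used here. Each table holds 6 value columns without names, so samples were not mapped to columns, and groups were not compared. Both tables hold no value for chromosome 19, and none for chromosome 12 in profiles D and E. The depth behind each value is unknown.

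Windows were assigned to the region, its parts and its 15 blocks by midpoint (Python 3.11.15, pandas 2.3.3, scipy 1.17.1). A gene took the values of the window that holds its midpoint, or of the nearest valued window within 50 kb. Values are given per profile, or as the median over the 6 with their range, and no test between groups or parts was run. Single profiles far from the others were found by Dixon's limit. Crests and valleys were called at a prominence of 0.25 score units and taken as shared within 100 kb. The third crest and the second valley were shared only at a prominence of 0.1. Genes were named by a rule: the earliest and latest member of each gene list, genes chosen by role, those at the borders of the parts, and those in the earliest and latest windows and at the fall through 0. Gm and pseudogene names, and genes named to place a crest, border or block, come from the annotation. Members, gene lists and blocks were chosen with earlier results of these data known. The alternatives were other borders, limits, gene positions and scalings, and leaving out each profile. The steps that find crests and crossings were tested on simulated curves without noise. The call of windows off the line of raw level on score was not tested in this way.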

Additional observations from a re-analysis of the deposited data

Results flagged for a closer look

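Among 43 values of the region tested for a profile far from the other 5, 3 passed Dixon's limit for 6 values. Chance passes that limit in about 1 in 20, so 3 is close to the count that chance would give. The values are not independent, since parts and their blocks share windows. The raw level of the block from the heat shock genes to Ddx39b was highest in profile A, at 2.18, with the next profile at 2.16. The score of the block from H2-M10.2 to H2-M10.6 was highest in profile B, at 0.79, with the next at 0.66. The position of the steepest fall was lowest in profile C, at 37217932, with the next at 37416840.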

How the results depend on the processing

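Alternatives gave 267 values, of which 225 stayed within the limit set for a move, 42 left it and 0 reversed. For counts the limit was a ratio to the main count, and for the rest the spread over profiles. Most of the 267 came from leaving out 1 profile, which can hardly move a median past that spread. Raw levels, shares, counts and positions cannot change sign. The mean score of the class II part was 1.28 when cut from H2-Oa to the last H2-E gene. With the class I part ended at H2-M3, the class I score was 0.66 and the distal score -1.13. With scores rescaled from raw levels in 100-kb bins, the class III score was 1.34, the distal score -1.18 and the share of units above 0 in every profile 67.3%. Rescaled over chromosome 17 up to the end of the region, the 4 parts scored 0.93, 0.99, 0.22 and -1.89, with 63.5% of windows above 0 and 31.0% below. The chromosome 17 scaling was applied only to the 13 gene lists of the region, and all 13 means left the spread. There the olfactory receptor mean was -1.36 and the class Ib mean 0.41. Of the 14 gene list means, 11 left the spread under the raw scaling and 1 with genes placed at their lower coordinate. At a range limit of 0.3 the count of windows was 81. Shared crests numbered 0 at a prominence of 0.5, and 0 when held within 50 kb, and shared valleys 2 at a prominence of 0.1 and 0 at 0.5. Without 1 profile in turn, the class II score ranged from 1.18 to 1.21, class III from 1.27 to 1.27, class I from 0.54 to 0.58 and distal from -1.29 to -1.24. The cause of these moves was not tested. No paired analysis was possible because no column is tied to a numbered replicate. Counting error could not be given, and H2-Q6, H2-Q7 and H2-Q10 rest on neighbouring windows.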
